A study of Homo sapiens with 6 samples.

Results

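The lysosome genes of COV434 cells were examined after exposure to 4HC. They are the 128 genes that the KEGG annotation in the deposited gene table places in its Lysosome pathway, out of 16798 genes in that table, with the 2 members of the ABC transporter family left out. By their textbook roles they were divided into 59 hydrolases and their activators, 23 membrane and lipid-handling proteins, and 46 genes of the proton pump (V-ATPase), the coat adaptors and the sorting machinery. After the filter on low counts 113 of the 128 genes could be tested, and 15 were too low for a test.

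Lysosomes are acidic organelles in which proteins, glycans, lipids and nucleic acids are broken down by acid hydrolases. The V-ATPase acidifies the lumen, membrane proteins line it and carry the breakdown products out, and mannose 6-phosphate tags, sorting receptors and clathrin adaptors bring newly made hydrolases there from the Golgi. Many lysosome genes carry the CLEAR element near their start site, which is bound by the transcription factors TFEB, TFE3 and MITF. Lysosomes also store and release iron, and they take part in autophagy.

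COV434 is an immortalized human line that the sample labels call granulosa cells (GCs) of wild-type genotype. RNA of 3 control samples was compared with RNA of 3 samples exposed to 15 µM 4HC, an active form of cyclophosphamide (CTX), for 24 h. The study used the comparison to ask how GCs respond to CTX, and the values here hold for this line only. Nothing in the labels or methods says whether the 3 samples of a group were separate cultures, so the p-values measure only the spread between these samples. The totals of expected counts (estimated reads per gene) were 16133786 to 16702316 per sample, and the labels name no batch. The titles of all controls end in the letter A and those of the 4HC samples do not, and its meaning is not given. Most markers of GCs were at or near 0, with at most 3 counts in any sample for FOXL2, FSHR, CYP19A1, NR5A1, STAR and GATA4, while AMH lay at 3.80 to 6.53, INHA at 0.483 to 1.17 and HSD17B1 at 12.0 to 15.5 CPM (counts scaled to a fixed total per sample). Among markers of macrophages, cells rich in lysosomes, PTPRC lay at 1.16 to 2.60 CPM and LYZ at 0.123 to 0.740 CPM, and CD14, CSF1R, ITGAM and TYROBP had at most 3 counts in any sample.

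To show what the promoters of this group hold, the CLEAR element was searched as TCACGTGA and its core as CACGTG in the 300 bases around each start site (250 before it and 50 after, RefSeq, GRCh38.p14). Both words read the same on either strand, and the element contains the core. RefSeq promoters were matched to 97 of the 128 members. Of these, 11 (11.3%) held the element, beside 1.58% of 13447 promoters of genes in the deposited table and 1.04% of all 27305 promoters. The core was in 20 of the 97 (20.6%), beside 9.27% and 7.43%. The promoters of the 5 members that carry the full element and were higher in 4HC are shown with that of LAMP1, which has the most copies of the core and was not called. All of these but ATP6V0D1 were among the named genes by rule, and the promoters to show were chosen after the values were seen. Each promoter is written in the direction of its gene with every full element in capitals.
GAA (chr17:80101331-80101630, + strand): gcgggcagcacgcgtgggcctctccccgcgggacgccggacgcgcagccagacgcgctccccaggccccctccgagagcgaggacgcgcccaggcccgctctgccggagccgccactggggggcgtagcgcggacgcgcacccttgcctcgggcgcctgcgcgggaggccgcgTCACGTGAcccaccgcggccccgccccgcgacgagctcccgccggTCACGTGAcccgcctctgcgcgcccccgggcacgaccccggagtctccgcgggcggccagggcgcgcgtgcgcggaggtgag
CTSA (chr20:45891085-45891384, + strand): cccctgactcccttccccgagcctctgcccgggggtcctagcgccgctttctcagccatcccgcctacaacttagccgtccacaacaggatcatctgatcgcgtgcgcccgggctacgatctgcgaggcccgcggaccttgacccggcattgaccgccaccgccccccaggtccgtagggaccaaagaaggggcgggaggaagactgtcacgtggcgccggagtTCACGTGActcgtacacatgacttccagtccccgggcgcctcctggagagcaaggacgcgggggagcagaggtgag
CLN3 (chr16:28492025-28492324, - strand): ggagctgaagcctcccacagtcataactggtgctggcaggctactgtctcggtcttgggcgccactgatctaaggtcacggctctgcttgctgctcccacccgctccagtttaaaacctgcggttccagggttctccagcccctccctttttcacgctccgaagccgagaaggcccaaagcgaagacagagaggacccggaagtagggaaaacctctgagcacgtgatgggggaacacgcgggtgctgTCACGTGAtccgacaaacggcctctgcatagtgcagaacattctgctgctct
GNPTG (chr16:1351681-1351980, + strand): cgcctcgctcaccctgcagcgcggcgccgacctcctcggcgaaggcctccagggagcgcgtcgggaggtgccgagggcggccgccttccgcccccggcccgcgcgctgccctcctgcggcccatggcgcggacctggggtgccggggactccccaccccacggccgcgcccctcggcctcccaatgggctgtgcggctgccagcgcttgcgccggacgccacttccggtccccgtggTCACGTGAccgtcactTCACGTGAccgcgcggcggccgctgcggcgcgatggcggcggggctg
ATP6V0D1 (chr16:67481108-67481407, - strand): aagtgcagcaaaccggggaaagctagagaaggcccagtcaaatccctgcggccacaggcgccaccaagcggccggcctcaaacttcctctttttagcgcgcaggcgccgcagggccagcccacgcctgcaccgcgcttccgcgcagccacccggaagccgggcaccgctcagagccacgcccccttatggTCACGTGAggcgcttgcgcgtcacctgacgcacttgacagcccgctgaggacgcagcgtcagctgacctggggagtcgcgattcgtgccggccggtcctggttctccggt
LAMP1 (chr13:113296989-113297288, + strand): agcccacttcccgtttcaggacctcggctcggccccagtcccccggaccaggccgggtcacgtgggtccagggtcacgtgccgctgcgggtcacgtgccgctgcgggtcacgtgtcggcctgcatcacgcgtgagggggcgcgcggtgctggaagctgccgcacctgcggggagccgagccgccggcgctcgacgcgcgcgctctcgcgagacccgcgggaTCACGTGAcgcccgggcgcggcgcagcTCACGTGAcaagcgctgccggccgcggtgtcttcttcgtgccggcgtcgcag

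Lysosome genes rose in 4HC more often than they fell, by small amounts. With edgeR's quasi-likelihood test and a Benjamini-Hochberg adjusted p under 0.05, 38 of the 113 tested members were higher (33.6%) and 8 were lower (7.08%), while 67 were not called. Over all 12368 genes tested, 19.2% were higher and 17.1% were lower, together 36.4%, beside 40.7% of the lysosome genes. The median log2 fold change of the members was 0.062, and that of all genes 0.005. Positive values were seen in 76 of the 113 members and in 6299 of the 12368 genes. The members ranged from -0.36 for SLC17A5 and CTSS, of which CTSS was not called, to 0.70 for CTSH. In 61 members the 3 values of one group did not overlap those of the other, which is the case in 45.3% of all genes. None of the 113 reached the threshold of the study's methods, a fold change of at least 2 with an unadjusted p under 0.05, which 1.15% of all genes passed. With DESeq2 none passed it either, and 55 of the members had an unadjusted p under 0.05 in edgeR. The study reports far more differentially expressed genes than passed its fold and p threshold in edgeR here. The cause of that gap was not tested. Whether lysosome genes are on the study's own list was not examined.

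**Figure D1:**
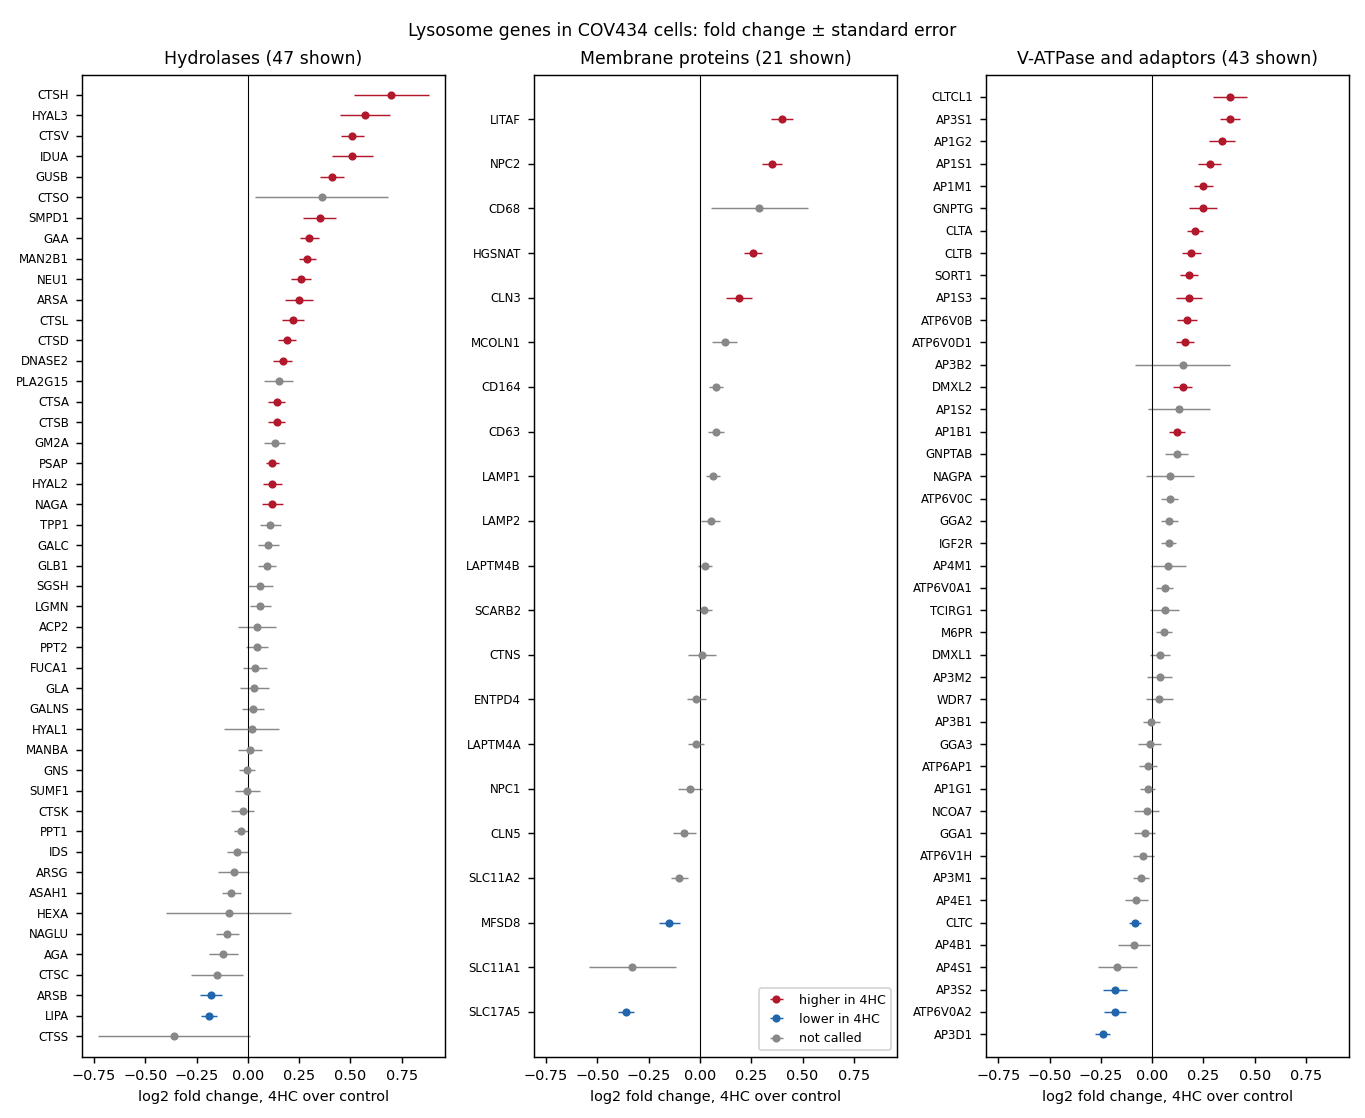
Log2 fold change of 4HC over control (x axis) with its standard error for 111 of the 113 tested lysosome genes (y axis), in 3 panels by role, with red for higher, blue for lower and grey for not called. Hydrolases hold the largest values, up to 0.70 for CTSH, and SLC17A5 at -0.36 is the lowest called gene.

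By role, 20 of 49 tested hydrolases were higher and 2 lower (40.8% and 4.08%), with a median log2 fold change of 0.095. For the membrane group these counts were 4 and 2 of 21 (19.0% and 9.52%), with a median of 0.025. In the V-ATPase and adaptor group 14 of 43 were higher and 4 lower (32.6% and 9.30%), with a median of 0.079. No test was made between the 3 roles.

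**Figure D2:**
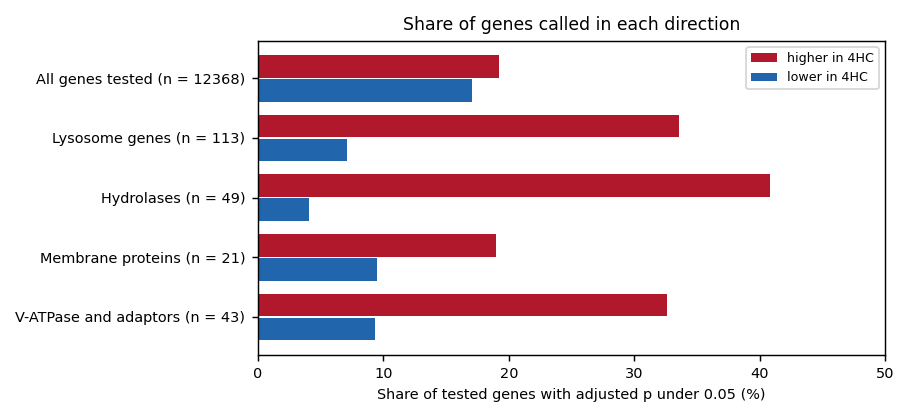
Share of tested genes (x axis, %) that were higher (red) or lower (blue) in 4HC at an adjusted p under 0.05, for all genes, all lysosome genes and each role (y axis). Hydrolases have 40.8% higher and 4.08% lower, against 19.2% and 17.1% of all genes.

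In length-scaled units, the summed level of the 59 hydrolases was 1982, 2017 and 2029 TPM (counts scaled to transcript length and to a fixed total) in control and 2183, 2132 and 2112 TPM in 4HC. This was 1.066 times the control mean (2009 ± 24.5 vs. 2142 ± 36.7, SD, n = 3). Membrane genes summed to 1526 ± 9.22 vs. 1588 ± 22.7 TPM, a ratio of 1.04, and V-ATPase and adaptor genes to 2085 ± 26.4 vs. 2216 ± 35.6 TPM, a ratio of 1.063. The groups did not overlap in any of these sums. Summed as CPM, the hydrolases kept a ratio of 1.069, and the V-ATPase and adaptor genes had 1.017 with overlapping groups. In bulk RNA a change in the cells present and a change within each cell cannot be told apart.

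**Figure D3:**
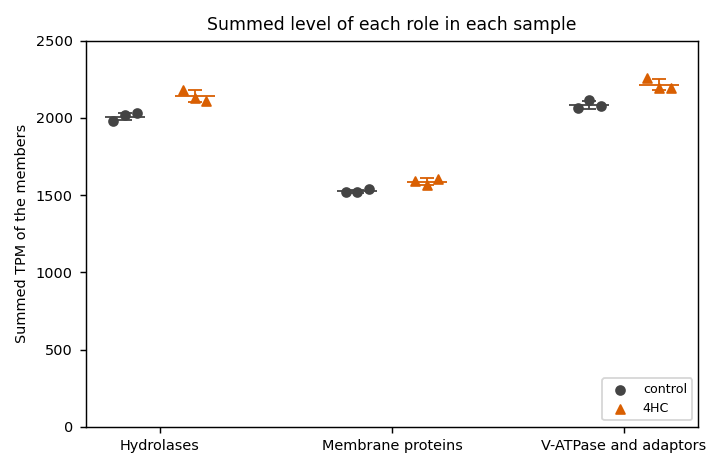
Summed TPM of the members of each role (y axis) in each control (grey circles) and 4HC sample (orange triangles), with horizontal marks for the means and bars for 1 SD. All 4HC samples lie above all controls in each role, by 1.04 to 1.066 times in the means.

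Among the proteases, 6 of 12 tested cathepsins and other peptidases rose and none fell. Of all genes tested 19.2% were higher and 17.1% lower. CTSH, an aminopeptidase, had 2.10, 2.71 and 3.14 CPM in control and 3.92, 5.18 and 3.79 CPM in 4HC. The groups did not overlap, at counts of only 34 to 84 per sample, and the log2 fold change was 0.70 (SE 0.181, adjusted p = 0.00174). CTSV (NCBI Gene 1515, chromosome 9 of GRCh38, 97029677 to 97039643), an endopeptidase close in sequence to CTSL, had 29.3, 28.4 and 30.2 CPM in control and 42.7, 41.3 and 41.1 CPM in 4HC. All of its 4HC samples stood well above all controls, with a log2 fold change of 0.51 (SE 0.0575, adjusted p = 2.72e-10). CTSL itself rose less, from 40.5, 40.0 and 43.8 to 47.2, 48.9 and 48.5 CPM (log2 fold change 0.22, adjusted p = 0.000988). How the counting divided reads between such near copies is not given in the sources used here.

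The more abundant cathepsins moved by smaller steps. CTSD, an aspartic protease, rose from 117, 127 and 114 to 144, 136 and 128 CPM (log2 fold change 0.19, SE 0.0429, adjusted p = 0.000345). CTSB, a cysteine protease, rose from 132 ± 4.19 to 146 ± 5.88 CPM, and CTSA, the protective protein of the neuraminidase complex, from 93.6 ± 2.24 to 103 ± 5.51 CPM, both with a log2 fold change of 0.14. Both calls depended on the first 4HC sample. Without it the adjusted p was 0.0534 for CTSB and 0.152 for CTSA, whose log2 fold change was then 0.085, and without the first control it was 0.0712 for CTSA. TPP1, a tripeptidyl peptidase, and LGMN, the asparaginyl endopeptidase, had log2 fold changes of 0.11 and 0.06 and were not called (adjusted p = 0.0844 and 0.370). TPP1 passed in 3 of the alternatives, with library size as the only scaling (adjusted p = 0.0395), without the second control (0.0319) and without the third 4HC sample (log2 fold change 0.16, adjusted p = 0.0147). CTSZ had at most 2 counts in any sample. Also untested at such levels were CTSE, CTSF, CTSG, CTSW and NAPSA, with at most 10 counts in any sample.

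Glycosidases, which remove sugars from glycoproteins, glycolipids and glycosaminoglycans, held the largest number of called hydrolases, 10 of 19 higher and none lower. The share that was higher was 52.6%, while 19.2% of all genes tested were higher and 17.1% lower. GUSB (NCBI Gene 2990, chromosome 7, 65960684 to 65982230), the lysosomal beta-glucuronidase, had 31.4, 35.4 and 32.9 CPM in control and 46.3, 42.7 and 43.4 CPM in 4HC. The groups were clearly apart (log2 fold change 0.41, SE 0.0578, adjusted p = 8.63e-08). Of its transcripts, XM_005250297 took 44.6% of the counts and went from 12.9 ± 2.79 to 21.1 ± 2.39 CPM without overlap, and NM_000181 stood at 12.5 ± 1.09 vs. 13.1 ± 2.40 CPM. IDUA, which splits iduronic acid from dermatan and heparan sulfate, had 8.51, 10.0 and 9.11 CPM in control and 14.3, 13.1 and 12.1 CPM in 4HC (log2 fold change 0.51, SE 0.0989, adjusted p = 3.41e-05). HYAL3, of the hyaluronidase family, had 5.49, 5.79 and 7.24 CPM in control and 8.63, 10.4 and 8.57 CPM in 4HC (log2 fold change 0.57, SE 0.123, adjusted p = 0.000164). Each lies over another gene that also rose, SLC26A1 for IDUA (log2 fold change 0.56, adjusted p = 0.0151) and NAA80 for HYAL3 (0.41, adjusted p = 0.00542). Whether the counting used strand is not given in the sources used here, and reads of overlapping genes cannot then be assigned with certainty.

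GAA and NEU1, glycosidases whose loss causes storage disease, rose at higher levels. GAA, the acid alpha-glucosidase that degrades glycogen, had 77.3, 73.9 and 66.7 CPM in control and 90.0, 91.2 and 87.7 CPM in 4HC (log2 fold change 0.30, SE 0.0469, adjusted p = 6.21e-07). The groups did not overlap, and its promoter holds 2 copies of the full CLEAR element. NEU1, the neuraminidase, rose from 54.3 ± 2.84 to 64.9 ± 1.29 CPM (0.26, adjusted p = 3.50e-05). HEXA, another glycosidase, was listed at 0.845 to 0.987 CPM in every sample, with no call. The deposited annotation gives HEXA a span of 199101 bases, beside 35091 in RefSeq. Larger mismatches were found for CTSB (10388116 beside 25564) and NEU1 (28757385 beside 5163), at 132 and 54.3 CPM in control. Unlike HEXA, neither of these genes was placed on an assembled chromosome there, so their mismatches are not directly comparable with that of HEXA. Whether the level listed for HEXA stands for the whole gene was not tested. GLB1 and GLA, the beta- and alpha-galactosidases, had log2 fold changes of 0.092 and 0.031 and were not called (adjusted p = 0.103 and 0.764).

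Lipid hydrolases and sulfatases did not move in one direction. Of the lipid hydrolases 16.7% were higher and 16.7% lower, and of the sulfatases 14.3% and 14.3%. Of all genes tested 19.2% were higher and 17.1% lower. SMPD1 (NCBI Gene 6609, chromosome 11, 6390440 to 6394998), the acid sphingomyelinase, had 13.7, 15.8 and 14.2 CPM in control and 19.9, 17.7 and 18.1 CPM in 4HC. The groups did not overlap (log2 fold change 0.35, SE 0.0811, adjusted p = 0.000464), and its main transcript rose in parallel from 11.6 ± 1.02 to 15.1 ± 0.754 CPM. LIPA, the acid lipase that frees cholesterol and fatty acids from lipoprotein esters, had 156, 154 and 157 CPM in control and 132, 138 and 139 CPM in 4HC. Every 4HC sample was below every control (log2 fold change -0.19, SE 0.0377, adjusted p = 3.75e-05). In RefSeq, LIPA overlaps genes of the IFIT family, though its deposited span is 38356 bases beside 201108 in RefSeq. Of these genes IFIT5 also fell (-0.25, adjusted p = 0.00991). IFIT1 (-0.2, adjusted p = 0.054) and IFIT2 (-0.023, adjusted p = 0.954) were not called. PPT1, the palmitoyl-protein thioesterase, and ASAH1, the acid ceramidase, had values of -0.034 and -0.081 and were not called. Of the 7 sulfatases ARSA rose (log2 fold change 0.25, adjusted p = 0.00389) and ARSB fell from 49.6 ± 1.99 to 43.6 ± 1.21 CPM (-0.18, adjusted p = 0.00475). The call of ARSB was lost on the log2 scale of TPM or FPKM, where its adjusted p reached 0.125.

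PSAP, whose product is cut into the saposins that present lipids to these enzymes, had the highest level of all members at 311 TPM over the 6 samples. It rose from 456, 484 and 476 to 521, 511 and 507 CPM (log2 fold change 0.12, SE 0.0317, adjusted p = 0.00204), a small difference with no overlap. ACP5, the tartrate-resistant phosphatase, had at most 2 counts in any sample, and DNASE2, the acid nuclease, rose from 66.5 ± 1.46 to 74.7 ± 1.61 CPM (0.17, adjusted p = 0.00294).

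The structural glycoproteins of the lysosomal membrane, LAMP1 and its kind, were not called in either direction with edgeR on all samples. This was the case in all 6 that could be tested, with log2 fold changes between 0.020 and 0.29, while 36.4% of all genes were called. LAMP1 had 218, 223 and 216 CPM in control and 233, 229 and 222 CPM in 4HC (log2 fold change 0.062, SE 0.0347, adjusted p = 0.160), and the groups overlapped. LAMP2, which is also needed for chaperone-mediated autophagy, had 74.9 ± 2.44 vs. 77.6 ± 5.25 CPM. SCARB2, of the scavenger receptor family, had 167 ± 3.97 vs. 169 ± 5.90 CPM. CD63, a tetraspanin and the second most abundant member at 301 TPM, had 141 ± 8.13 vs. 149 ± 3.82 CPM (log2 fold change 0.078, adjusted p = 0.125). LAMP1 passed with limma on FPKM (adjusted p = 0.0479), and CD63 passed with library size as the only scaling (0.0479) and without the second control (log2 fold change 0.12, adjusted p = 0.0171). LAMP3 was too low for a test, with 1 to 2 counts per control and 5 to 14 per 4HC sample.

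Of 9 genes grouped as transporters or channels, 2 were higher and 2 lower (22.2% each), near the 19.2% and 17.1% of all genes tested. The higher ones were the soluble protein NPC2 and the enzyme HGSNAT, and the lower ones were SLC17A5 and MFSD8. None of the others was called. SLC17A5 (NCBI Gene 26503, chromosome 6), the sialin transporter that exports sialic acid, had 153, 150 and 160 CPM in control and 113, 120 and 127 CPM in 4HC. The 3 samples of 4HC were all far below the controls, and the log2 fold change of -0.36 was the lowest of the called members (SE 0.0408, adjusted p = 2.69e-10). One transcript, NM_012434, carried 93.6% of its counts and went from 143 ± 6.73 to 114 ± 5.58 CPM. MFSD8, a transporter-like protein mutated in a neuronal ceroid lipofuscinosis, had 50.9 ± 1.46 vs. 45.8 ± 1.56 CPM (log2 fold change -0.15, adjusted p = 0.0179). Its call was lost with DESeq2 (adjusted p = 0.0516), with limma on FPKM (0.0555), and without the first control (0.0797), the third control (0.0502) or the third 4HC sample (0.0636).

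The cholesterol exporters of the lysosome differed in their values. NPC2 (NCBI Gene 10577, chromosome 14, 74479935 to 74493512), a soluble protein that hands cholesterol to NPC1, had 52.9, 52.7 and 51.8 CPM in control and 68.0, 65.9 and 67.3 CPM in 4HC. The spread within each group was small beside the difference (log2 fold change 0.35, SE 0.0479, adjusted p = 3.14e-08), and both of its listed transcripts were higher without overlap. NPC1, the membrane partner, had 36.5 ± 0.646 vs. 35.3 ± 1.06 CPM and was not called (log2 fold change -0.048, SE 0.0569, adjusted p = 0.543). HGSNAT, the membrane enzyme that acetylates heparan sulfate, rose from 75.8, 81.2 and 78.3 to 96.5, 90.2 and 95.2 CPM (0.26, SE 0.0441, adjusted p = 3.56e-06). MCOLN1, the channel that releases calcium and iron, had 31.9 ± 1.04 vs. 34.6 ± 1.64 CPM (0.12, adjusted p = 0.118), and CTNS, the cystine exporter, 24.9 ± 0.850 vs. 25.0 ± 2.40 CPM (0.0082, adjusted p = 0.939). Neither was called.

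LITAF, a membrane-associated protein of late endosomes, rose most in this role. It had 41.0, 40.6 and 45.6 CPM in control and 57.7, 54.1 and 55.6 CPM in 4HC (log2 fold change 0.40, SE 0.0536, adjusted p = 2.76e-08). CLN3, a lysosomal membrane protein mutated in juvenile ceroid lipofuscinosis, had 31.1, 30.6 and 26.4 CPM in control and 33.6, 33.5 and 33.1 CPM in 4HC (0.19, SE 0.0624, adjusted p = 0.0156). The third control was the low one, and without it the log2 fold change of CLN3 was 0.11 with an adjusted p of 0.206. With DESeq2 its adjusted p was 0.0819, and with limma on log2(TPM + 1) 0.0505. Its transcript NM_000086 went from 10.6 ± 2.21 to 14.3 ± 0.584 CPM without overlap, and NM_001042432 stood at 17.2 ± 3.21 vs. 17.3 ± 0.638 CPM.

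Of 8 tested V-ATPase subunits in the pathway, 2 were higher and 1 lower, so that 37.5% were called, beside 36.4% of all genes. ATP6V0D1, a subunit of the membrane sector, rose from 72.0, 75.1 and 73.7 to 83.7, 80.2 and 83.2 CPM (log2 fold change 0.16, SE 0.0444, adjusted p = 0.00288). ATP6V0B, of the proteolipid ring, rose from 73.8 ± 3.63 to 82.9 ± 4.75 CPM (0.17, adjusted p = 0.00388), and its call was lost without the third control or the first 4HC sample (adjusted p up to 0.0685). ATP6V0C, the main ring subunit and one of the 5 most abundant members, had 112 ± 3.40 vs. 119 ± 5.08 CPM and was not called (0.086, adjusted p = 0.0953). ATP6V0A2, an isoform of the large membrane subunit, fell from 52.0 ± 1.39 to 45.7 ± 1.86 CPM (-0.18, adjusted p = 0.00410), and this call was lost with limma on TPM or FPKM (adjusted p up to 0.188).

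The AP-1 adaptor, which loads mannose 6-phosphate receptors into clathrin coats at the Golgi, was the adaptor with the most calls. Of its 7 tested subunits 5 were higher and none lower. The share that was higher was 71.4%, while 19.2% of all genes tested were higher and 17.1% lower. AP1G2, its gamma-2 subunit, had 27.0, 26.0 and 24.4 CPM in control and 35.0, 30.8 and 32.0 CPM in 4HC (log2 fold change 0.34, SE 0.0637, adjusted p = 2.61e-05). AP1S1, a small subunit, had 45.5, 48.9 and 43.4 CPM in control and 53.4, 59.3 and 54.4 CPM in 4HC (0.28, SE 0.0539, adjusted p = 4.30e-05). AP1M1, the medium subunit that binds sorting signals, had 66.1, 69.5 and 66.7 CPM in control and 83.8, 75.9 and 80.9 CPM in 4HC (0.25, SE 0.0466, adjusted p = 1.93e-05). In all 3 genes the groups did not overlap. AP1G1, the more abundant gamma subunit, had 173 ± 6.54 vs. 170 ± 4.02 CPM and was not called. The other called subunits, AP1B1 and AP1S3, held less well. The call of AP1B1 was lost in 5 of 15 alternatives, which were limma on TPM with either pseudocount and the removal of the first control, the third control or the first 4HC sample (adjusted p up to 0.134). That of AP1S3 was lost in 6, with DESeq2, with limma on TPM or FPKM, and without the first control or the second 4HC sample (adjusted p up to 0.136).

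AP-3, which serves a direct route of membrane proteins to lysosomes, had 1 subunit higher and 2 lower of 7. Together 42.9% were called, near the 36.4% of all genes. AP3S1 (NCBI Gene 1176, chromosome 5, 115841592 to 115914081), a small subunit, had 54.0, 55.3 and 55.0 CPM in control and 70.1, 71.2 and 73.1 CPM in 4HC. These were among the tightest groups of the named members (log2 fold change 0.38, SE 0.0473, adjusted p = 2.91e-09). AP3D1, the large delta subunit, had 207, 216 and 209 CPM in control and 184, 175 and 175 CPM in 4HC, and so moved the other way (-0.24, SE 0.0360, adjusted p = 3.17e-07). AP3S2, the other small subunit, fell from 45.0 ± 2.81 to 39.7 ± 2.71 CPM (-0.18, adjusted p = 0.0105). It overlaps a readthrough gene with ARPIN, and its call was lost with limma and without the third control or the second 4HC sample (adjusted p up to 0.127). None of the 4 AP-4 and 3 GGA genes was called, while 36.4% of all genes were. The log2 fold changes of these AP-4 and GGA genes lay between -0.17 and 0.084.

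All 4 clathrin genes were called, 3 higher and 1 lower (75.0% and 25.0%, beside 19.2% and 17.1% of all genes). The light chains CLTA and CLTB rose from 132 ± 7.65 to 152 ± 4.92 CPM (log2 fold change 0.21, adjusted p = 5.02e-05) and from 65.8 ± 2.85 to 74.9 ± 2.03 CPM (0.19, adjusted p = 0.00111). CLTCL1, a second heavy chain, had 15.7, 13.1 and 13.6 CPM in control and 16.7, 18.9 and 19.7 CPM in 4HC (0.38, SE 0.0842, adjusted p = 0.000248). CLTC, the main heavy chain and far more abundant, had 933, 933 and 951 CPM in control and 887, 858 and 914 CPM in 4HC (-0.084, SE 0.0303, adjusted p = 0.0252). Its call was lost with library size as the only scaling, with limma, and without the third control or the second 4HC sample (adjusted p up to 0.175).

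Of the genes that tag and sort the hydrolases, 1 of 3 tagging genes and 1 of 3 sorting receptors were higher and none lower (33.3% each, beside 19.2% of all genes). GNPTG, a subunit of the enzyme that adds the mannose 6-phosphate tag, had 24.0, 28.1 and 22.8 CPM in control and 31.3, 29.4 and 28.4 CPM in 4HC (log2 fold change 0.25, SE 0.0678, adjusted p = 0.00255). The second control came close to the lowest 4HC sample, and without the third control the log2 fold change was 0.19 with an adjusted p of 0.0524. GNPTG also overlaps UNKL, which rose as well (0.30, adjusted p = 8.69e-05). GNPTAB, which encodes the catalytic part of that enzyme, had 39.2 ± 2.12 vs. 42.6 ± 2.50 CPM and was not called (0.12, adjusted p = 0.0874). The mannose 6-phosphate receptors IGF2R and M6PR had log2 fold changes of 0.080 and 0.059 (adjusted p = 0.0976 and 0.232), and neither was called, although the groups did not overlap. SORT1, a receptor that sorts hydrolases without the tag, rose from 74.6, 75.3 and 77.2 to 86.4, 83.6 and 88.0 CPM (0.18, SE 0.0439, adjusted p = 0.000731).

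Members with the full CLEAR element in the promoter had positive log2 fold changes in each case tested, beside 76 of all 113 tested members. Of the 11 tested members with the full element, 5 were higher and none lower, with a median log2 fold change of 0.12, and the 6 others, LAMP1 among them, were not called. Of the 75 tested members whose promoter lacked it, 25 were higher and 7 lower, with a median of 0.06. The core was in 18 tested members, 8 higher and none lower. Over all genes tested, 19.2% were higher and 17.1% lower, with a median of 0.005. Genes of the TFEB target list of the GTRD collection, as annotated in the deposited table, were described in the same way. Of 34 tested members on that list 12 were higher and 2 lower (35.3% and 5.88%, median 0.083). Of the 79 members off it 26 were higher and 6 lower (32.9% and 7.59%, median 0.059). Across all genes on that list, 211 of 982 were higher and 170 lower (21.5% and 17.3%), near the shares of all genes tested. These differences were described and not tested.

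Genes that control or position lysosomes were taken from a list outside the pathway. Of 42 tested genes 6 were higher and 6 lower (14.3% each, beside 19.2% and 17.1% of all genes). The split depended on the processing, with 8 higher and 5 lower when library size was the only scaling, 5 and 3 with DESeq2, 5 and 2 with limma on TPM, and 9 and 2 with limma on FPKM. The transcription factors of the CLEAR element were not called. TFEB had 7.89, 8.43 and 10.3 CPM in control and 9.05, 9.25 and 9.37 CPM in 4HC (log2 fold change 0.057, SE 0.109, adjusted p = 0.722). TFE3 had 59.8 ± 1.64 vs. 61.1 ± 3.26 CPM and MITF 4.99 ± 0.590 vs. 5.40 ± 0.589 CPM. The groups overlapped in all 3 genes.

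The largest called changes among these regulators were of 3 kinds of protein. TMEM175, a proton and potassium channel of the lysosome, had 11.6, 13.6 and 11.8 CPM in control and 19.1, 16.0 and 14.6 CPM in 4HC (log2 fold change 0.43, SE 0.0927, adjusted p = 0.000192). LAMTOR4, part of the Ragulator complex that anchors mTORC1 to lysosomes, rose from 54.0 ± 2.45 to 66.8 ± 2.83 CPM (0.31, SE 0.0497, adjusted p = 1.60e-06). LGALS8, a galectin that binds damaged lysosomes, fell from 5.79 ± 0.282 to 4.44 ± 0.0297 CPM (-0.38, SE 0.139, adjusted p = 0.0261). That call was lost with DESeq2 (adjusted p = 0.105), and without the first control (0.0927) or any one 4HC sample (0.0529 to 0.0581).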

How the data were processed

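RNA of COV434 cells was sequenced in 3 control and 3 4HC samples. Per the labels, SOAPnuke removed poor reads and the Dr. Tom system was used from there on, and the submitters' processing notes name HISAT2, Bowtie2, RSEM 1.3.1, DESeq2 1.4.5 and GRCh38.p13 without roles. The authors deposited estimated (expected) counts of 16798 genes and 79213 transcripts, without normalization, of which 85.46% of the gene values were whole numbers exactly, with no tolerance. The deposited TPM and FPKM values were scaled by the authors to length and depth. Columns of the authors' own DESeq2 comparison (fold changes, p and q values) and a second copy of the gene table were not used. Depth was 16133786 to 16702316 counts per sample, and 0 counts in a sample allow up to 3, for counting error only.

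Expected counts were rounded and tested with edgeR 4.0.16 (R 4.3.3) after TMM and filterByExpr, with condition as the only term. CPM are TMM-scaled. Benjamini-Hochberg adjustment covered all 12368 genes tested. In simulated counts (12290 genes, 200 changed), the test found 88% of genes with a log2 change of 0.5 and 98% of those with 1.5, and 5.61% of its 196 calls were false. Every simulated gene had the same biological coefficient of variation (0.0277), and no change below 0.5 was simulated. The median absolute log2 fold change of the tested members was 0.118, and these rates do not describe changes of that size. Alternatives were DESeq2 1.42.0, its size factors within edgeR, library size alone, no filter, at least 10 counts in every sample, limma 3.58.1 on log2(TPM + 1), log2(TPM + 0.1) and log2(FPKM + 1), the replicate number as a block, and removal of each sample.

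The members, roles and lists were chosen with earlier results of these data known. Named genes were the 6 called members of largest absolute log2 fold change without overlap in each role, a fixed set of well-known members, TFEB, TFE3, MITF and the 3 regulators of largest called change, the 5 members of highest TPM, and members too low for a test; other genes named were chosen after their values were seen. Results of 2 members are not reported here by name, and both are included in the counts. Transcript values are the deposited expected counts on the same CPM scale. Gene spans are printed only for the 81 members whose deposited span lay within 1000 bases of RefSeq's. Overlaps between genes came from RefSeq (GRCh38.p14). Tables were made with pandas 2.3.3 in Python 3.11.15, and figures with matplotlib 3.10.9.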

Additional observations from a re-analysis of the deposited data

How the results depend on the processing

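The 38 higher and 8 lower lysosome genes became 33 to 48 higher over the alternatives that keep all samples, and 32 to 40 higher and 5 to 8 lower when a sample was left out. The 48 came with library size as the only scaling. In that setting all higher genes also went from 2379 to 2725, and all lower ones from 2118 to 1735. Of the 46 calls, 31 passed in all 15 alternatives, 16 of 20 higher and 1 of 2 lower hydrolases, 3 of 4 and 1 of 2 membrane genes, and 9 of 14 and 1 of 4 V-ATPase and adaptor genes. On the log2 scale, lower lysosome genes numbered 5 with TPM (either pseudocount) and 3 with FPKM, with 1 lower hydrolase and 1 lower V-ATPase or adaptor gene in each of the 3 limma settings, and 1 lower membrane gene with FPKM or DESeq2; lower regulators numbered 2 in each limma setting and 3 with DESeq2, and lower genes overall 1343 with FPKM. The cause was not tested. With a sample left out, there were 1 to 2 lower membrane genes, 2 to 4 lower V-ATPase or adaptor genes and 2 to 5 lower regulators. Without a filter LAMP3 was the 1 member at the study's threshold.

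Summed as FPKM, the ratio of 4HC to control was 1.087 for hydrolases, 1.06 for membrane genes and 1.083 for V-ATPase and adaptor genes, and summed as CPM it was 1.02 and 1.017 for the last 2; the membrane ratio in TPM was 1.034 to 1.049 with a sample left out. The promoter share rose from 11.3% to 20.6% with the shorter word. With library size as the only scaling, GLB1, IGF2R, GNPTAB and ATP6V0C, not called otherwise, passed (adjusted p = 0.0421, 0.0342, 0.0441 and 0.0369). Values of uncalled genes near 0 changed sign when 1 sample was left out. GLA lay between -0.0043 and 0.077 (negative without the first control and, at -0.0038, without the first 4HC sample), LAMP2 between -0.0013 and 0.093 (negative without the third 4HC sample) and SCARB2 between -0.0068 and 0.038 (negative without the third 4HC sample and, at -0.00062, without the second control). CTNS lay between -0.079 and 0.053 (negative without the first 4HC sample and, at -0.020, without the first control), TFEB between -0.022 and 0.18 (negative without the first control), and TFE3 between -0.020 and 0.055 (negative without the first 4HC sample).

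With the replicate number as a block, 38 lysosome genes were higher and 8 lower, as without it, and 2259 of all genes were higher and 1954 lower. Samples with the same number had correlations of 0.031, 0.085 and 0.014 in their deviations from the group means. Other pairs had -0.086 to 0.06, and not every sample correlated best with its own number. With 3 samples per group this cannot show whether samples of the same number shared a culture or a batch. Depth limits the members near 1 CPM, such as HEXA, CTSO and CTSS, whose standard errors were 0.306, 0.325 and 0.370. Groups of 3 are too few for a test of outlying samples, and an exact permutation test of 3 against 3 cannot give a p below 0.1.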

Other observations

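The KEGG pathway holds mainly the membrane sector of the V-ATPase, and the cytosolic sector and accessory subunits were looked at from a separate list. Of 13 tested genes, 4 were higher in 4HC and 2 lower, which is 30.8% and 15.4% beside 19.2% and 17.1% of all genes. ATP6V1F, a small subunit of the cytosolic sector, had 101, 98.2 and 91.2 CPM in control and 118, 122 and 110 CPM in 4HC (log2 fold change 0.27, SE 0.0437, adjusted p = 1.43e-06, edgeR). ATP6V0E2 rose from 73.2 ± 1.04 to 88.0 ± 3.82 CPM (0.27, adjusted p = 3.05e-06) and ATP6AP2, the accessory subunit also known as the prorenin receptor, from 124 ± 0.635 to 145 ± 5.51 CPM (0.22, adjusted p = 7.65e-06). ATP6V1A and ATP6V1B2, which form the catalytic ring, had log2 fold changes of 0.10 and -0.0035 and were not called (adjusted p = 0.0558 and 0.958). ATP6V1D, of the central stalk, was the fourth gene that was higher, and its call was lost without the first control or the second 4HC sample (adjusted p up to 0.0719). ATP6V1G1, a stalk subunit, fell from 104 ± 2.72 to 94.4 ± 5.76 CPM (-0.13, adjusted p = 0.0125) with overlapping groups, and its call was lost without the third control, the first or the third 4HC sample, or with limma on FPKM (adjusted p up to 0.0725). ATP6V1C2, at 3.12 ± 0.371 vs. 2.24 ± 0.198 CPM, was the other lower gene (-0.48, adjusted p = 0.0461), and its call was lost in 8 of 15 alternatives, among them the removal of any one 4HC sample or of the second or the third control (adjusted p up to 0.166).

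None of the 128 lysosome genes was on the list of direct p53 targets in the annotation of the deposited table. That list is short, with 302 of the 16798 genes. Of its 265 tested genes 184 were higher in 4HC and 10 lower (69.4% and 3.77%, beside 19.2% and 17.1% of all genes). A link between p53 and the lysosome genes was not tested.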
